A study of Rattus norvegicus with 18 samples.

Results

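The genes described here encode the machinery that fuses synaptic vesicles with the nerve terminal membrane. They were chosen by name, as every gene in the deposited tables whose symbol is that of a numbered synaptotagmin, a SNAP, a VAMP, a syntaxin, a syntaxin binding protein, a complexin, a synapsin, a RIM (Rims), a Munc13 (Unc13) or an SV2 protein. The rule found 69 of 38445 genes in 10 families, with 17 synaptotagmins, 15 syntaxins, 8 VAMPs, 7 syntaxin binding proteins, 5 SNAPs, 4 complexins, 4 RIMs, 3 Munc13s, 3 synapsins and 3 SV2 genes. Of these, 67 passed the filter on low counts and were tested, and Cplx4 and Syt8 did not pass it. Names do not follow function strictly. Snap91 encodes the clathrin assembly protein AP180, and syntaxins such as Stx5, Stx12 and Stx18 serve membrane traffic inside the cell.

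The RNA was from 18 wild-type adult male Sprague-Dawley rats. The tissue was the ventral tegmental area (VTA), a part of the midbrain whose dopamine neurons project to the nucleus accumbens and cortex. Control rats (numbered 1 to 6) were fed a Lieber-DeCarli liquid diet, also over 15 or 16 days. Rats 7 to 12 (chronic ethanol) drank such a diet containing 9% v/v ethanol, over a period of 15 or 16 days, with 0 h of withdrawal. Rats 13 to 18 (withdrawal) drank it as well, and their tissue was collected 24 h after ethanol stopped. Each library came from 1 rat, and the dissected tissue holds other neurons and glia besides dopamine neurons.

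At a nerve terminal, vesicles carry VAMP proteins that pair with syntaxin and SNAP-25 on the plasma membrane. The 3 proteins wind into a SNARE complex that pulls the membranes together. Munc13 proteins prepare syntaxin for this step, RIM proteins hold the release site, complexins clamp and then promote fusion, and synaptotagmins sense the calcium that triggers it. Synapsins tie vesicles into a reserve pool, and SV2 proteins are vesicle membrane glycoproteins. Ethanol is known to change transmitter release in many brain regions, and the comparisons asked which of these transcripts differed after chronic ethanol or during withdrawal.

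Libraries held 29.6 to 45.1 M counts on genes. Counts were scaled to library size as CPM, and to CPM per kilobase of exon (RPKM) where genes are compared with each other. The 14 dopamine neuron markers summed to 1361 to 3998 CPM in control, 577 to 3920 CPM in chronic ethanol and 491 to 3326 CPM in withdrawal. The tissue therefore held dopamine neuron RNA in every group, and its amount varied widely between rats. Several libraries stood apart before any test. In withdrawal rat 13, all 7 markers of the pineal gland were above their level in the other rats that did not stand apart, and their sum was 16779 CPM against 8.45 to 17.3 CPM in the other 17 rats. In control rat 5 and ethanol rat 8, 7 of 11 hindbrain position genes were higher than in those rats, with sums of 107 and 80.1 CPM against at most 5.85 CPM elsewhere. The other 4 of those 11 genes (Hoxa2, Hoxa3, Hoxa4 and Hoxa5) were at 0 in every library. Of the 14 dopamine markers, 13 in withdrawal rat 17, 14 in rat 8, 12 in rat 13 and 10 in rat 5 were below those rats. Rat 17 had 17.6 CPM of Th, the enzyme that makes the dopamine precursor. In bulk tissue, fewer cells of a type and less RNA per cell cannot be told apart.

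No vesicle fusion gene passed the test in any comparison. By edgeR's quasi-likelihood test with Benjamini-Hochberg adjustment over 17637 genes, 0 of 67 members had an adjusted p under 0.05 in chronic ethanol against control, in withdrawal against control or in withdrawal against chronic ethanol. The background was also 0% of all genes tested in each comparison. The lowest adjusted p of a member was 0.834 in chronic ethanol against control (Stx12), 0.319 in withdrawal against control (Cplx3) and 0.132 in withdrawal against chronic ethanol (Cplx3). A test for any difference among the 3 groups gave 0 of 67 members and 0% of all genes, with a lowest adjusted p of 0.108.

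The share of members with low p-values was no higher than that of all genes. At an unadjusted p under 0.05, there was 1 of 67 members in chronic ethanol against control (Stx12), where 5.84% of all genes tested reached it. In withdrawal against control there were 2 (Cplx3 and Stx18) beside 9.82% of all genes. In withdrawal against chronic ethanol there were 4 (Cplx3, Stx2, Stx18 and Syt7) beside 15.3%. DESeq2, run as another tool, also called 0 members in each comparison, where it called 46, 47 and 294 of all genes. No member had groups that did not overlap, beside 0.93%, 0.607% and 1.36% of all genes tested in the same order of comparisons.

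Most members' changes were small. The median size of their log2 change, without its sign, was 0.07, 0.08 and 0.13 in the same order of comparisons. All genes tested had 0.09, 0.12 and 0.14. The largest was 6.62, for Cplx3 in withdrawal against control, and it came from 1 library. With its sign, the members' median log2 change was -0.02 in chronic ethanol against control, -0.03 in withdrawal against control and -0.03 in withdrawal against chronic ethanol. All genes tested had -0.0039, 0.01 and 0.02. Withdrawal rats had lower fitted levels than control for 43 of 67 members, beside 46.3% of all genes. This count was 43 of 68 without rat 13, 42 of 67 without rats 5, 8, 13 and 17, and 36 of 68 without control rat 5. It was 36 of 67 with the first index sequence of the library, read from its name, as a term in the fit. No withdrawal rat shared a first index with a control rat. That fit therefore links these groups only through the chronic ethanol rats, and cannot separate index from group well. In withdrawal against control, 14 of 14 dopamine neuron markers (median log2 change -0.41) and 15 of 16 general neuron markers also had lower levels. No dopamine marker had an unadjusted p under 0.05, and their lowest adjusted p was 0.622 by edgeR. The withdrawal group holds rats 13 and 17, in which most dopamine markers were low. The part of both lists in the members' levels was not tested. Chronic ethanol had lower levels than control for 34 of 67 members, beside 51.3%, and withdrawal lower levels than chronic ethanol for 40 of 67, beside 46.7%. The 95% interval of the change lay within 1.5-fold either way for 52 of 67 members in chronic ethanol against control, for 46 in withdrawal against control and for 45 in withdrawal against chronic ethanol. It lay within 2-fold for 60, 59 and 58. For the remaining members, the interval reached past these sizes.

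**Figure D1:**
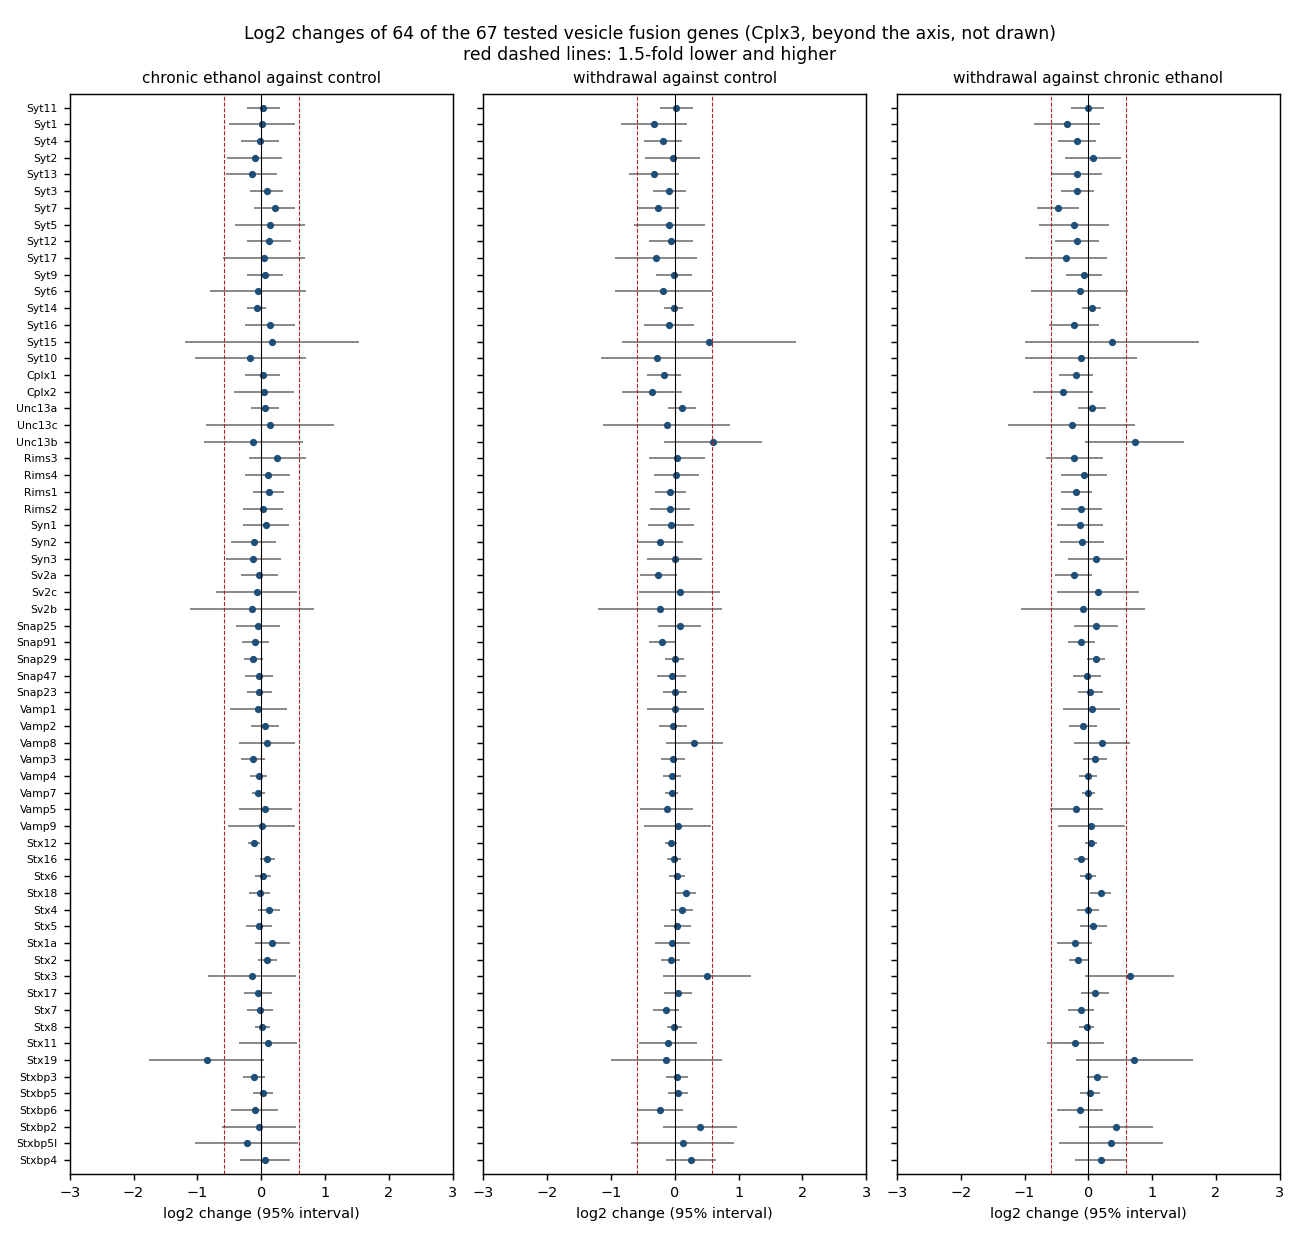
Log2 change (x axis) with its 95% interval (grey line) for 64 of the 67 tested vesicle fusion genes (y axis, by family), in 3 panels for the 3 comparisons. The points drawn cluster near 0, and 50, 44 and 43 of the 64 intervals drawn lie between the dashed lines that mark 1.5-fold lower and higher. Cplx3 is not drawn because its changes of 6.62 and 6.38 in withdrawal against control and against chronic ethanol lie beyond the axis.

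Levels within the families differed far more than levels between groups. Of the 69 genes, 10 had a mean over 100 RPKM, 41 over 10 RPKM and 6 under 1 RPKM over the 18 rats. In each family 1 gene led by RPKM, and in 9 of 10 families the same gene led by CPM. The exception was the RIM family, led by Rims3 by RPKM and by Rims1 by CPM. The coefficient of variation over the 18 rats was under 10% for 11 genes and over 50% for 11 others.

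**Figure D2:**
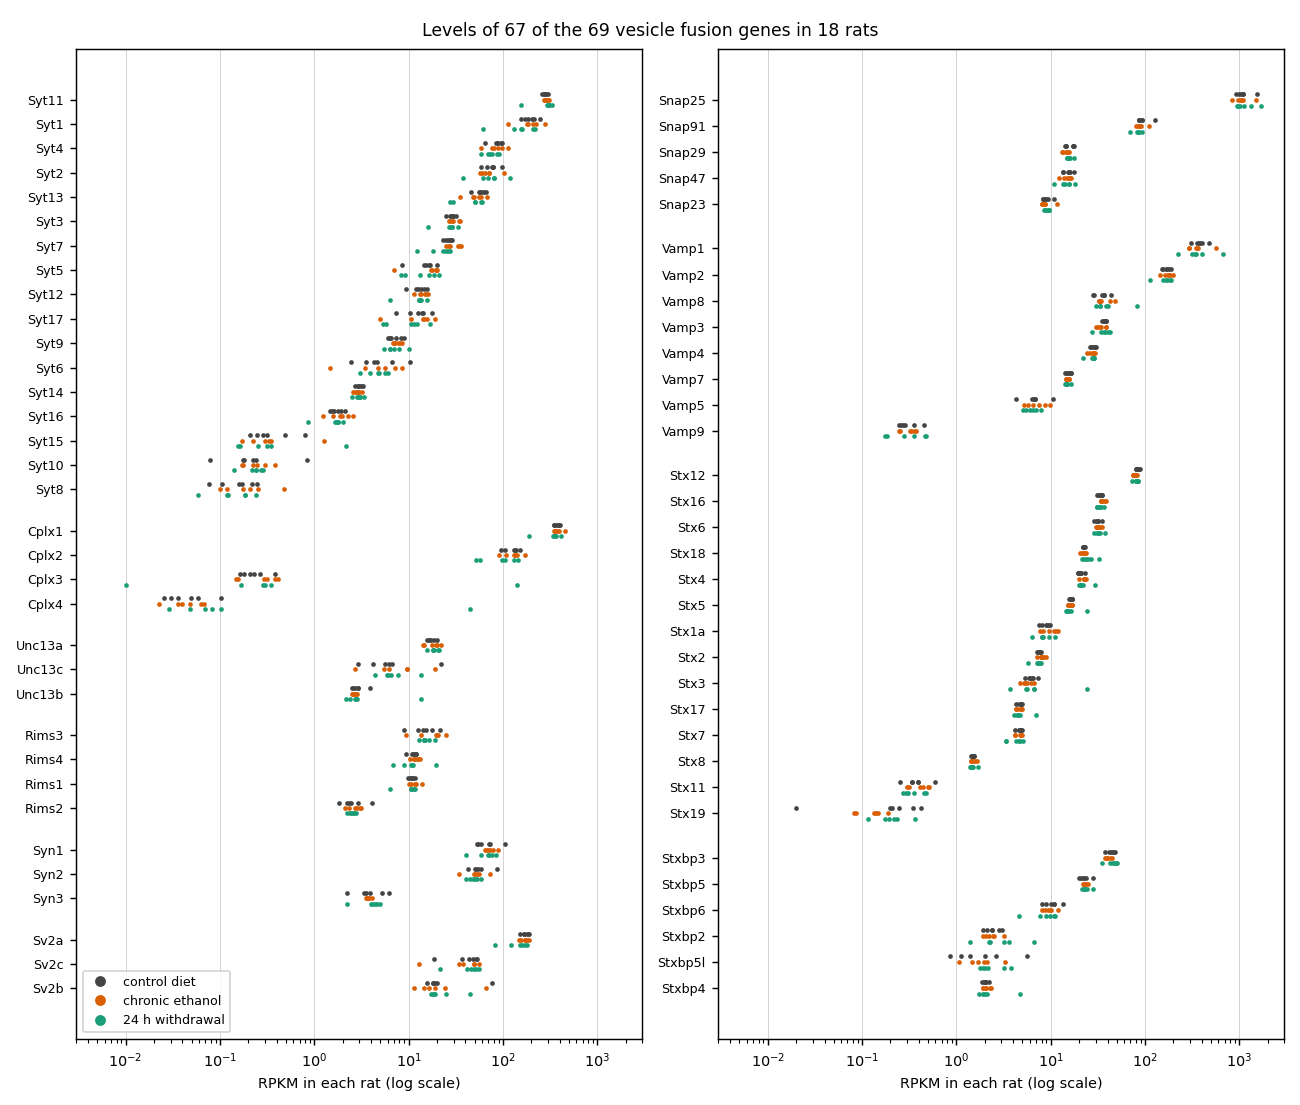
RPKM on a log scale (x axis) of each of 67 of the 69 genes (y axis, by family and ordered by mean level) in each of 18 rats, coloured by group. Snap25 leads at a mean of 1124 RPKM, while the groups' points overlap in every gene, and single withdrawal points stand far right for Cplx3, Cplx4, Syt15, Unc13b and Stx3.

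Among the SNARE proteins, Snap25, the plasma membrane SNARE of the neuronal complex, had the highest level of the 69 genes. Its CPM was 1938, 2274 and 3284 (lowest, median and highest of 6 rats) in control, 1795, 2196 and 3216 in chronic ethanol and 1997, 2272 and 3565 in withdrawal. The groups overlapped almost entirely. The high values were those of control rat 5, ethanol rat 8, withdrawal rat 13 and, at 2806 CPM, withdrawal rat 17. Snap25 took 87.7 to 94.0% of the summed RPKM of its family in every rat. The fitted change was -0.05 in chronic ethanol against control, 0.07 in withdrawal against control and 0.12 in withdrawal against chronic ethanol, with 95% intervals from -0.39 to 0.29, -0.27 to 0.41 and -0.22 to 0.46. Snap47, Snap29 and Snap23, relatives found also outside synapses, had means of 14.9, 15.3 and 9.03 RPKM.

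Of the vesicle SNAREs, Vamp1 (mean 377 RPKM) was above Vamp2 (168 RPKM), the SNARE of most forebrain synapses, in every one of the 18 rats. The RPKM ratio of Vamp1 to Vamp2 ran from 1.32 in withdrawal rat 13 to 5.91 in withdrawal rat 17. Vamp1 CPM was 801, 994 and 1240 in control, 767, 929 and 1472 in chronic ethanol and 582, 906 and 1773 in withdrawal. Both the lowest and the highest of the 18 values were withdrawal rats (13 and 17), so this group spanned the others. Syt2, the calcium sensor that works beside Vamp1 in fast-firing neurons, shared these extremes, at 94.9 CPM in rat 13 and 301 CPM in rat 17. In rat 17 Nefh, a heavy neurofilament of large axons, was also highest, at 1913 CPM. Its part in these levels was not tested. Vamp7, which serves endosomes and lysosomes, varied least of the 69 genes, with a coefficient of variation of 4.97%.

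Among the syntaxins, Stx1a, a plasma membrane syntaxin of neurons, had 9.12 RPKM. Stx12, an endosomal syntaxin, had the lowest p of a member in chronic ethanol against control. Its CPM was 218, 229 and 242 in control, 204, 211 and 222 in chronic ethanol and 199, 219 and 229 in withdrawal. Of the 6 chronic ethanol rats, 4 lay below every control rat, and the groups overlapped. Stx12 had a log2 change of -0.11 ± 0.04 (SE; unadjusted p 0.0246, adjusted p 0.834 by edgeR).

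Stx18, a syntaxin of the endoplasmic reticulum, had 32.8, 33.6 and 34.1 CPM in control, 30.5, 33.2 and 35.2 CPM in chronic ethanol and 32.3, 35.9 and 49.0 CPM in withdrawal. The highest value was that of rat 13, followed by rat 17. Its log2 change was 0.17 in withdrawal against control (adjusted p 0.495 by edgeR) and 0.19 in withdrawal against chronic ethanol (adjusted p 0.278). Without rat 13, the changes of Stx18 were 0.08 and 0.10. The change against chronic ethanol then still had an unadjusted edgeR p under 0.05, as had 13.9% of all genes. The change against control had not, and neither passed after adjustment. Stx19 and Stx11, at 0.195 and 0.385 RPKM, were near the lower end of what these libraries measured, and the log2 change of -0.85 of Stx19 in chronic ethanol against control had an interval from -1.76 to 0.05. In withdrawal against chronic ethanol, Stx2 had -0.16 (adjusted p 0.313 by edgeR; -0.10 without rat 13, its lowest value) and Stx16 had -0.11 (adjusted p 0.340). The remaining syntaxins reported here, Stx1a included, had control means of 18.8 CPM (Stx1a) to 78.0 CPM (Stx6) and changes between -0.22 and 0.18, apart from Stx3, which is taken up with rat 13 below.

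Of the syntaxin binding proteins, Stxbp3, a ubiquitous Munc18, had 43.1 RPKM and Stxbp5 (tomosyn, which competes for syntaxin and SNAP-25) 23.3 RPKM. Stxbp5l, a second tomosyn, varied 6.53-fold between rats 3 and 5.

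Among calcium sensors, Syt11 and Syt1 had the highest levels of the 17 synaptotagmins, at 284 and 183 RPKM. Syt11 does not bind calcium and is known to act in membrane retrieval, while Syt1 is the main sensor for fast release. Fitted levels were lower in withdrawal than in control for 14 of 16 tested synaptotagmins (median log2 change -0.09) and lower than in chronic ethanol for 13 of 16 (median -0.17), beside 46.3% and 46.7% of all genes. The dopamine neuron markers were also lower, 14 of 14 against control and 13 of 14 against chronic ethanol, with medians of -0.41 and -0.38. None of these markers had an unadjusted p under 0.05 by edgeR in either comparison. Their part in these levels was not tested. In chronic ethanol against control, 6 of 16 synaptotagmins were lower. None passed the test. Without rat 13, in whose library 7 synaptotagmins had their lowest value, 11 of 17 tested synaptotagmins were lower in withdrawal than in control and 14 of 17 lower than in chronic ethanol.

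Syt7, a slow, high-affinity calcium sensor of asynchronous release, had the lowest p of the synaptotagmins. Its gene lies on chromosome 1 from 226435816 to 226498008 (Rnor_6.0). CPM was 253, 292 and 310 in control, 274, 330 and 395 in chronic ethanol and 133, 262 and 296 in withdrawal. The low values were those of withdrawal rats 13 and 17, and 3 chronic ethanol rats (7, 10 and 12) were above every other rat. Syt7 had a log2 change of -0.48 ± 0.15 (SE) in withdrawal against chronic ethanol, with an unadjusted p of 0.00636 and an adjusted p of 0.189 by edgeR. It was -0.35 ± 0.11 without rat 13 (adjusted p 0.162) and -0.32 ± 0.09 without rats 5, 8, 13 and 17 (adjusted p 0.180). Against control, chronic ethanol had 0.21 and withdrawal -0.26, with intervals from -0.11 to 0.54 and from -0.59 to 0.06. In the fit of all 18 rats, withdrawal and chronic ethanol thus lay on opposite sides of control, without either difference passing the test. Without rats 5, 8, 13 and 17, Syt7 had an unadjusted edgeR p under 0.05 in chronic ethanol against control, as had 13% of all genes. No member had one in withdrawal against control in that setting, and none passed after adjustment.

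The other synaptotagmins spanned a wide range of levels. Syt4, a synaptotagmin of dense core vesicles, had 82.7 RPKM and Syt2 73.9 RPKM. Syt13, Syt3, Syt5, Syt12 and Syt17 had 52.0, 28.5, 15.5, 13.2 and 12.1 RPKM. Syt15, Syt10 and Syt8 had 0.466, 0.257 and 0.179 RPKM.

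Complexins gave the largest fitted change of any member, and it came from 1 library. Cplx1 led with 363 RPKM and Cplx2 followed with 117 RPKM. Cplx3 and Cplx4, known as the complexins of retinal ribbon synapses, were at the low end. Cplx3 (chromosome 8, 62379502 to 62386264, Rnor_6.0) had 0.556, 0.739 and 1.31 CPM in control, 0.503, 1.03 and 1.40 CPM in chronic ethanol and 0.0346, 0.996 and 477 CPM in withdrawal. The value of 477 CPM was that of rat 13, and the lowest of the 18, under the 3 counts that a gene at 0 could have, was that of rat 17. The other 4 withdrawal rats lay within the range of the controls. Cplx3 made up 32.5% of the summed complexin RPKM in rat 13 and at most 0.0782% elsewhere.

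The fitted log2 change of Cplx3 was 6.62 in withdrawal against control and 6.38 in withdrawal against chronic ethanol (adjusted p 0.319 and 0.132 by edgeR). Without rat 13 it was -0.08 and -0.33 (adjusted p 0.979 and 0.797). DESeq2 gave Cplx3 no p-value. Cplx4 (chromosome 18, 61657216 to 61672641, Rnor_6.0) had 87.8 CPM in rat 13 and 0.0444 to 0.204 CPM in the other 17 rats. The filter on low counts left it out of the test. The pineal markers given above, in which Tph1 alone reached 14990 CPM and the photoreceptor and pineal factor Crx 446 CPM against at most 0.301 CPM elsewhere, were high in the same library. Their part in the complexin values was not tested.

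The 250 bases before the start of Cplx3 and Cplx4 are shown because these complexins were high together in that library. They were read from RefSeq's GRCr8 promoter table, on the gene's strand, 5′ to 3′ (chr8:66906201-66906450 and chr18:61767755-61768004, both on the minus strand). Capitals mark the core motif GGATTA that Crx and Otx factors bind, found on either strand (TAATCC on the other).
Cplx3: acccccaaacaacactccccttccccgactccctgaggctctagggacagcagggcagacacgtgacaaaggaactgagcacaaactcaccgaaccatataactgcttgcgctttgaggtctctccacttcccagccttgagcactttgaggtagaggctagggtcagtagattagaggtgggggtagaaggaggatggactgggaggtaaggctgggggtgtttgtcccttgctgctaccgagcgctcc
Cplx4: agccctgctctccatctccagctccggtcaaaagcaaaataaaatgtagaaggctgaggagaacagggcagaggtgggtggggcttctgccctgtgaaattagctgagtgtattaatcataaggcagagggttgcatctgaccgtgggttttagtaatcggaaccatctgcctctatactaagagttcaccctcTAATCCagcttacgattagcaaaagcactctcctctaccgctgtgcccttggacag
The motif occurred in Cplx4, 56 bases before the start, and its letters were not in the window of Cplx3. Of 54 members with a window in the table it was in 2 (Cplx4 and Rims3), or 3.70%, and of all 33469 windows in 6.34%.

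Of the priming and release site proteins, Unc13a (Munc13-1, needed to prime vesicles) led its family in RPKM, at 18.0, and its CPM was 74.4, 81.2 and 95.7 in control, 67.6, 89.2 and 106 in chronic ethanol and 75.5, 88.0 and 102 in withdrawal. The groups overlapped throughout, and the interval of its change lay from -0.11 to 0.33 in withdrawal against control. Unc13c (Munc13-3, known mainly from the cerebellum) was highest in rats 5 and 8, with 220 and 189 CPM against 26.9 to 134 CPM in the other 16. There, Unc13c was above Unc13a per length, with Unc13a to Unc13c ratios of 0.782 and 0.741, where the other 16 rats had 1.33 to 5.62. Unc13b (Munc13-2) had 107 CPM in rat 13 and 16.9 to 30.8 CPM elsewhere. Its log2 change in withdrawal against chronic ethanol was 0.72 (adjusted p 0.354 by edgeR), and -0.05 without rat 13.

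The RIM genes had 16.1, 11.4, 10.9 and 2.62 RPKM for Rims3, Rims4, Rims1 and Rims2. Rims1, the large scaffold that recruits calcium channels, had 93.0, 102 and 110 CPM in control, 96.5, 111 and 130 in chronic ethanol and 59.7, 102 and 111 in withdrawal. Rat 13 alone was low. Rims4, a short RIM, was instead highest in rat 13 at 101 CPM, and lowest in rat 17 at 35.0 CPM. All 4 RIM genes had fitted levels above control in chronic ethanol and below chronic ethanol in withdrawal, with medians of 0.11 and -0.15 on the log2 scale, and none passed the test. Both comparisons use the same chronic ethanol rats.

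Synapsin 1 (Syn1) had 69.5 RPKM, synapsin 2 (Syn2) 53.0 and synapsin 3 (Syn3) 3.96. Syn2 had 123, 152 and 252 CPM in control, 99.2, 150 and 209 in chronic ethanol and 118, 142 and 167 in withdrawal, and rats 5 and 8 were the highest of the 18. Syn1 was lowest in rat 13 at 129 CPM and highest in rat 5 at 335 CPM. The 3 synapsins' changes in the 3 comparisons lay between -0.22 and 0.12.

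In the SV2 family, the balance of the members differed between rats. Sv2a, the ubiquitous SV2 and the binding site of levetiracetam, had 649, 746 and 804 CPM in control, 639, 736 and 820 in chronic ethanol and 354, 671 and 770 in withdrawal, with a log2 change of -0.26 in withdrawal against control (95% interval -0.55 to 0.03). Without rat 13, where Sv2a was lowest, it was -0.14. Sv2c, which is enriched in dopamine neurons and the basal ganglia, had 172, 418 and 486 CPM in control, 119, 398 and 514 in chronic ethanol and 198, 435 and 507 in withdrawal. Sv2b (chromosome 1, 136664199 to 136842247, Rnor_6.0), typical of glutamate neurons, had 92.0, 109 and 449 CPM in control, 67.0, 104 and 385 in chronic ethanol and 102, 109 and 264 in withdrawal. The 3 lowest rats for Sv2c (5, 8 and 13) were the 3 highest for Sv2b.

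The RPKM ratio of Sv2b to Sv2c was 4.08, 5.06 and 2.08 in rats 5, 8 and 13, and 0.291 to 0.720 in the other 15 rats. Slc17a7, the vesicular glutamate transporter of cortical and cerebellar neurons, was at 509, 409 and 810 CPM in those rats and at most 23.8 CPM in the rest. With the other vesicular glutamate transporters, Slc17a6 and Slc17a8, the sums were 646, 553 and 1071 CPM there. The rest had 50.1 to 340 CPM, so the difference lay mainly in Slc17a7. The part of Slc17a7 in the SV2 levels was not tested. No SV2 gene differed between groups by more than the spread between rats, and Sv2b's interval in chronic ethanol against control reached from -1.11 to 0.83.

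**Figure D3:**
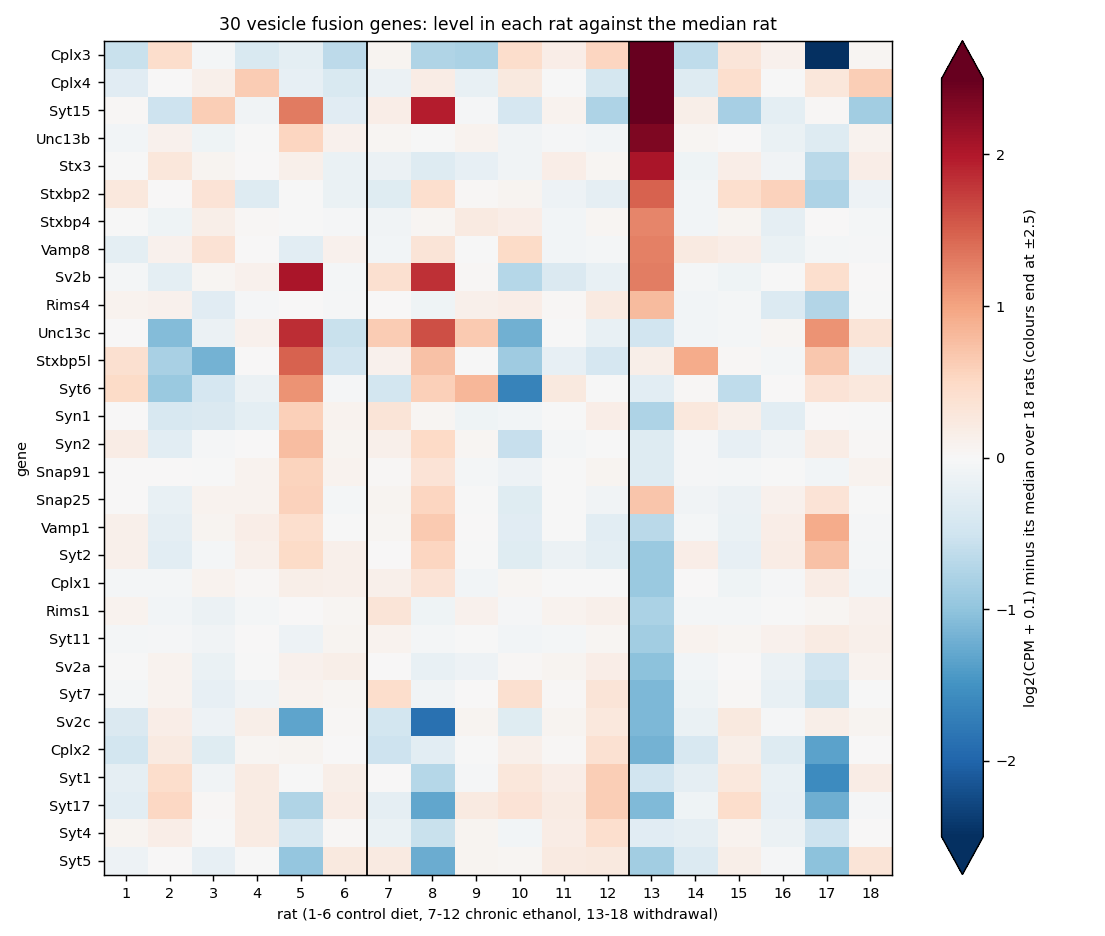
Heat map of 30 vesicle fusion genes (rows) in 18 rats (columns, with lines between the groups): log2(CPM + 0.1) minus the gene's median over all rats, from blue (lower) to red (higher), with colours ending at ±2.5. The 30 genes were chosen after their values were seen. Among them, rats 5, 8, 13 and 17 stand apart, 1 each in control and chronic ethanol and 2 in withdrawal. Sv2b and Unc13c are high in rats 5 and 8, while Cplx3 and Cplx4 are high in rat 13.

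The departures of those 4 rats were wide among the members and among other genes. Rat 13 had the highest of 18 values for 18 of 67 tested members (26.9%), beside 32.0% of all genes tested, and the lowest for 24 (35.8%), beside 25.6%. Stx3, a syntaxin of ribbon synapses and epithelia, was at 186 CPM in rat 13 and at 28.5 to 55.1 CPM in the other 17 rats. Stxbp2 (Munc18-2, the epithelial and blood cell form) was at 19.6 CPM there, Vamp8, an endosomal and secretory granule SNARE, at 24.8 CPM, and Syt15 at 8.78 CPM, each the highest of the 18 values. Cplx1, Sv2a and Syt11 were at 415, 354 and 666 CPM in rat 13, each the lowest. Snap25, in contrast, had its highest value in the same library. The summed general neuron markers, which hold no member, were at 5152 CPM in rat 13 and 6445 to 12192 CPM in the other 17.

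Rats 5 and 8 were the 2 highest for 4 of 67 members (Snap91, Sv2b, Syn2 and Unc13c; 5.97%), beside 5.74% of all genes tested, and the 2 lowest for 2 members (Rims3 and Sv2c; 2.99%), beside 4.06%. Rat 17 had the lowest value for 13 of 67 members (19.4%), beside 7.67% of genes, Syt1, Cplx2 and Vamp2 among them. It had the highest value for 7 members (10.4%), beside 7.38% of genes, with Vamp1 and Syt2 among them. A vesicle SNARE, a calcium sensor and a complexin thus sat at the low end in rat 17 while their relatives Vamp1 and Syt2 sat at the high end.

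Levels of some members followed the amount of dopamine neuron RNA in the sample. This relation was examined after the data had been seen. For each gene, log2(CPM + 1) was correlated over the 18 rats with the mean log2(CPM + 1) of the 14 dopamine neuron markers, with permutation p-values adjusted over all 17637 genes. Of 67 members, 5 had a positive relation that passed (Syt1, Syt17, Syt4, Syt5 and Cplx2) and 1 a negative one (Snap25), together 8.96%, beside 1.7% of all genes, the markers included (1.4% positive and 0.301% negative).

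Syt1, on chromosome 7 from 50084063 to 50638996 (Rnor_6.0), had 734, 901 and 1166 CPM in control, 526, 911 and 1312 in chronic ethanol and 289, 743 and 1028 in withdrawal. Its lowest values were those of rats 17 and 8, the rats with the lowest means of the dopamine markers, and its highest those of rats 12 and 2, with 788 and 735 CPM of the dopamine transporter Slc6a3. Pearson's r of Syt1 was 0.953 and Spearman's rho 0.924 (permutation, adjusted p 0.00242 and 0.0019). It was 0.882 without rats 8 and 17, which lie farthest from the median of the markers.

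Syt17, a relative that lacks a transmembrane anchor, had 29.6, 53.7 and 71.5 CPM in control, 20.1, 57.8 and 76.3 in chronic ethanol and 21.5, 44.7 and 67.4 in withdrawal. Rats 8, 17 and 13 were the 3 lowest, as for Syt1, and rat 5 came next. Its r was 0.942 and rho 0.955, and r was 0.950 without rats 8 and 17. Cplx2 had r 0.802 and rho 0.818 (adjusted p 0.0351 and 0.0100 by permutation), and 0.818 without those rats. The lowest Cplx2 levels were 113 CPM in rat 17 and 127 CPM in rat 13.

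These relations were also calculated within sets of libraries that share a first index sequence, read from the library names. In rats 1 to 8, r was 0.925 for Syt1, 0.982 for Syt17 and 0.480 for Cplx2. In rats 9 to 16 it was 0.956, 0.960 and 0.966. Rats 17 and 18 carry another index and are too few for a value. Leaving out rats 5, 8, 13 and 17, Syt1, Syt17 and Cplx2 were the members that still passed, with r of 0.902, 0.916 and 0.923 over 14 rats, beside 0.527% of all genes.

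The other 3 relations rested in part on those 4 rats. Syt4 had r 0.861 and rho 0.800, and 0.635 without them. Syt5 had r 0.846 and rho 0.725, and 0.378 without them. Snap25 had r -0.756 and rho -0.816 (adjusted p 0.0474 and 0.00596 by permutation), and -0.563 without them. The high Snap25 values belonged to the 4 rats with the lowest marker means, and the 14 others lay close together.

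**Figure D4:**
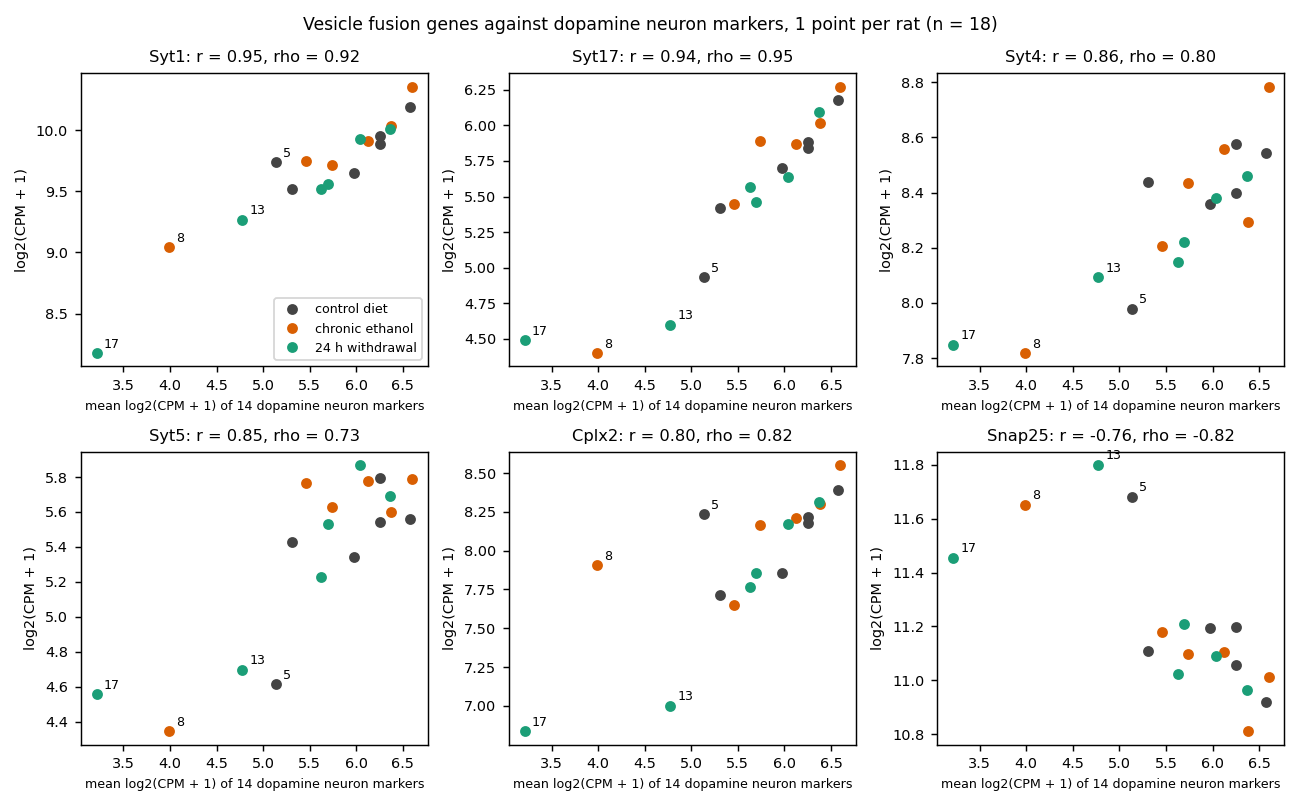
Each panel plots log2(CPM + 1) of 1 gene (y axis) against the mean log2(CPM + 1) of 14 dopamine neuron markers (x axis), 1 point per rat, coloured by group, with rats 5, 8, 13 and 17 numbered. Points of the 3 groups run along the same line for Syt1 and Syt17 (r 0.953 and 0.942), while in the Snap25 panel the 4 numbered rats sit apart from the other 14.

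Promoter windows of Syt1 and Cplx2 are shown because these genes followed the dopamine markers together. They are the 250 bases before the start in RefSeq's GRCr8 table, on the gene's strand, 5′ to 3′ (chr7:46244214-46244463 and chr17:10236754-10237003, both on the minus strand). Capitals mark the GC box GGGCGG, on either strand (CCGCCC on the other), which Sp factors bind.
Syt1: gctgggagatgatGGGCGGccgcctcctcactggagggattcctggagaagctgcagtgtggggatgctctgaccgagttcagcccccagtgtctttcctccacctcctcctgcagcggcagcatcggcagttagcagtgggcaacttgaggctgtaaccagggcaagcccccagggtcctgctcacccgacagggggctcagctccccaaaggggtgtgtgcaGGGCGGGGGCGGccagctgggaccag
Cplx2: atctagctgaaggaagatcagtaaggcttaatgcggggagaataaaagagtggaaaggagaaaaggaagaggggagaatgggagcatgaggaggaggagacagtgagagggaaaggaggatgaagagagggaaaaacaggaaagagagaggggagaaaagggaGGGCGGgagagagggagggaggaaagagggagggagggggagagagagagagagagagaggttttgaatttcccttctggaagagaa
The GC box stood 237, 26 and 20 bases before the start of Syt1, the last pair side by side, and 87 bases before the start of Cplx2. It was in 31 of 54 members' windows (57.4%), beside 30.5% of all windows, which were not matched to the members for gene type or base content. The response element AAAGGTCA (TGACCTTT on the other strand) of Nr4a2, a factor of dopamine neurons, was in 0 of 54 members' windows, beside 1.24% of all. The cAMP response element TGACGTCA was in 2 of 54 (Syn1 and Vamp1), beside 1.59% of all. Syt4, which also followed the dopamine markers, had a window, not shown here, and it held no GC box. No window was in the table for Syt17, Syt5 or Snap25.

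Beyond the members, 116 other genes of the release and recycling cycle were counted from lists of SNARE chaperones, active zone scaffolds, Rab3 and Rab27 tethers, other calcium sensors, vesicle membrane proteins, endocytosis proteins, transmitter transporters and SNARE regulators. Of the 114 tested, 0 passed in each comparison, beside 0% of all genes. At an unadjusted p under 0.05 there were 5, 6 and 10, beside 5.84%, 9.82% and 15.3% of all genes, and the median log2 changes were -0.0026, -0.00021 and -0.0046. Vti1b, an endosomal SNARE, was higher in chronic ethanol than in control in all 6 rats without overlap (log2 change 0.22 ± 0.05 SE, adjusted p 0.281 by edgeR). The groups did not overlap for 2, 1 and 2 of the 114 in the 3 comparisons, beside 0.93%, 0.607% and 1.36% of all genes. Picalm, a clathrin adaptor that retrieves VAMPs, had 0.20 ± 0.06 in withdrawal against chronic ethanol (adjusted p 0.137), and Itsn2, an endocytic scaffold, 0.35 ± 0.10 (adjusted p 0.146). Itsn2 was higher in withdrawal without overlap against chronic ethanol and also against control. The clathrin heavy chain Cltc was lower in chronic ethanol than in control without overlap (log2 change -0.17 ± 0.05, adjusted p 0.646). It was also higher in withdrawal than in chronic ethanol without overlap.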

How the data were processed

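Stranded mRNA libraries of 18 rats, 6 in each of 3 groups, were read from each end for 101 cycles, according to the labels. What the authors deposited are raw counts, whole numbers of read pairs per gene. Per the file headers they come from featureCounts 1.5.0, set to the reverse strand. Alignment with STAR 2.5.2a to Rnor_6.0 is named, with R 3.3.3 and limma, in the submitters' processing notes. RefSeq symbols of a newer assembly matched 29322 of 38445 genes. Library totals were 29.6 to 45.1 M. A gene at 0 could have up to 3 counts (95% limit), equal to 0.0665 to 0.101 CPM, for counting error only.

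CPM and RPKM were calculated with TMM factors. The 17637 genes kept by filterByExpr were tested two-sided over all 18 libraries by the quasi-likelihood F-test of edgeR 4.0.16 in R 4.3.3. Calls were made where the p-value after Benjamini-Hochberg adjustment over these genes was under 0.05. SEs were the log2 change over the square root of F, and 95% intervals used 17.6 degrees of freedom. Other settings were RLE factors, no filter, 1 CPM in 6 libraries, DESeq2 1.42.0, limma-voom (limma 3.58.1), robust fitting, only the groups compared, the first index as a term, leaving out rats 5, 8, 13 and 17 or each rat in turn, and an adjusted p of 0.10. The relation to dopamine markers used 100000 permutations (numpy 2.4.6). It and its alternatives were added after the data were seen.

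Members described by name are those with the 6 lowest p-values in each comparison, the 2 highest by RPKM in each family, and those with a rat far from the other 5 of its group, beside their relatives. Other members named for rats 13 and 17, for the dopamine relation or for a low level were chosen after their values were seen. Values of 2 members are not reported here, though both were fitted and counted with the rest of the 67 in the tests. Members and lists were chosen with earlier results of these data known. Gene positions are from the files (Rnor_6.0), and promoter windows from RefSeq (GRCr8). No genome was used here.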

Additional observations from a re-analysis of the deposited data

Results flagged for a closer look

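In 38 of 182 pairs of a vesicle fusion gene and a group (groups of 6 with a mean of at least 1 CPM), 1 rat lay far from the other 5, with a gap to its neighbour, as a share of the group's range, above Dixon's 95% limit. Of the 44890 pairs of any tested gene and a group with that mean, 19.1% had such a rat, beside 20.9% of these pairs. Chance alone passes this limit in about 1 of 20 groups. All values here are CPM of the rat named, and 31 members are concerned.

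Withdrawal rat 13 was the distant rat in 23 of the 38 pairs. These are 37.1% of the members' withdrawal pairs, beside 32.0% over all genes. It was high for Cplx3 (477), Sv2b (264), Stx3 (186), Unc13b (107), Rims4 (101), Stx4 (91.0), Cplx4 (87.8), Snap29 (60.0) and Stx5 (59.6). It was also high for Stxbp4 (47.6), Stx17 (37.9), Vamp8 (24.8), Stx8 (21.9) and Syt15 (8.78). It was low for Syt11 (666), Cplx1 (415), Stx12 (199), Vamp4 (108) and Rims1 (59.7), and for Stx2 (28.6), Syt12 (13.2), Syt16 (6.65) and Syn3 (5.00). Genes of synaptic release therefore stood on both sides in this library. Its pineal markers summed to 16779 CPM, and their part in these values was not tested.

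Control rat 5 was high for Snap25 (3284), Snap91 (607), Sv2b (449), Syn2 (252), Unc13c (220) and Unc13b (30.8). Ethanol rat 8 was high for Snap25 (3216), Vamp1 (1472), Snap91 (520), Sv2b (385), Syt2 (261) and Syt15 (5.13), and low for Syt5 (19.3). Snap25, Snap91 and Sv2b are in both lists, and the hindbrain position genes of these rats summed to 107 and 80.1 CPM. Their part was not tested. The remaining pairs were Snap23, a SNAP-25 relative outside synapses, in ethanol rat 10 (27.8) and Unc13c in withdrawal rat 17 (134).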

How the results depend on the processing

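The count of members called stayed at 0 in all 3 comparisons under all 27 other settings, leaving out each rat included, and 0 members were called for any difference among the groups. The counts over all genes moved more. DESeq2 called 46 genes in chronic ethanol against control, 47 in withdrawal against control and 294 in withdrawal against chronic ethanol, where edgeR called 0. In chronic ethanol against control, limma-voom, the fit of only the groups compared, the first index as a term and the fit without rats 5, 8, 13 and 17 each called 2 genes, and an adjusted p under 0.10 gave 1. In withdrawal against chronic ethanol, the fit without those 4 rats called 2 and an adjusted p under 0.10 gave 83. Leaving out 1 rat at a time gave 0 to 4, 0 to 2 and 0 to 24 genes in the 3 comparisons (most without rat 13, rat 13 and rat 18). The median log2 change of the members then ranged from -0.03 to 0.03, -0.07 to -0.01 and -0.07 to -0.01. Of 3633 log2 changes of named members under other settings, 49 moved by more than 1 SD between rats and 221 had the other sign. The largest shift of the median of all genes under another setting was 0.03 (log2). The cause was not tested. At an adjusted p under 0.10, Syt7 passed in withdrawal against chronic ethanol by DESeq2 (0.0946), and Cplx3 passed in the same comparison without rat 14, 15 or 18. The number of members related to the dopamine markers was 6 (beside 1.7% of all genes) in the main analysis, 13 (2.35%) by Spearman's rho, 16 (3.86%) without rat 13, 3 (0.527%) without rats 5, 8, 13 and 17, and 12 (5.43%) without rats 8 and 17. The 16 without rat 13 were 10 positive and 6 negative. Vamp1 (r -0.941) and Syt2 (r -0.903) were among the negative ones. Over all 18 rats these 2 had r of -0.670 and -0.523 and did not pass. No paired analysis was possible because rats are numbered 1 to 18 in the titles, so no number occurs in more than 1 group. Depth did not limit most members, but Cplx4, Syt8, Syt10 and Stx19 lay near 3 counts in some libraries and Cplx3 under it in rat 17, and 6 rats a group limit the precision of the rest.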
